A study of Mus musculus with 8 samples.

Results

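The genes described here are the replication-dependent histone genes, the copies of H1, H2A, H2B, H3 and H4 that supply new chromatin during DNA synthesis. Members were chosen by symbol: a row of the value table had to map to exactly 1 gene symbol of the histone families H1, H2A, H2B, H3 or H4, under the current or the older naming. The rule found 29 genes among the 22180 genes with such a row, 8 of H1, 6 of H2A, 8 of H2B and 7 of H4. No H3 row mapped to only 1 symbol, and 39 further histone symbols occur only in rows shared by several copies. The family was selected because H2ac15 stood low after irradiation in these same arrays, so its values are given as a description with no test. The symbol rule also took in 6 members that are not made in S phase: the replication-independent linker histone H1f10, the testis histones H1f6, H1f7, H2ac1 and H2bc1, and the oocyte histone H1f8.

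Transcript levels were read from 8 Affymetrix arrays, 1 per mouse. All mice were 8-week-old C57BL/6 females carrying a subcutaneous pancreatic tumour grown for 14 days from the implanted cell line 152, which came from spontaneous tumours of KPC mice (KrasLSL-G12D/+, Trp53LSL-R172H/+, Pdx1-Cre, with the recombinase driven by a pancreatic promoter). In 4 mice the tumour received 20 Gy and in 4 it received a sham treatment, and 1 day later CD45+ CD11b+ Ly6Chi cells, which the labels call inflammatory monocytes/macrophages, were sorted from it. The tumour model is a single implanted line.

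Each nucleosome wraps DNA around a core of H2A, H2B, H3 and H4, and a linker histone H1 binds where the DNA enters and leaves. Dividing cells make these proteins from many near-identical genes without introns, packed in clusters and switched on together as S phase begins. Their mRNAs end in a conserved stem-loop in place of a poly(A) tail, are cut by a dedicated machinery that includes the stem-loop binding protein and the U7 particle, and are destroyed when DNA synthesis stops. Monocytes outside the bone marrow are known to divide little. In RNA from bulk cells, fewer cycling cells and less histone mRNA per cell cannot be told apart.

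The start regions of 5 members are shown because the results turn on the H2A class and on H1f5, and because these genes are read from promoters of a shared design. All sequences are from RefSeq with the build GRCm38.p6, written 5′ to 3′ on the strand of the gene and ending at the base before its annotated start. Capitals mark exact matches on either strand to TATAAA (the TATA box), to CCAAT (the box bound by NF-Y), to AAACACA (the H1 box) or to ATTTGCAT (the octamer bound by Oct1). The stretch of H2ac15 fills the whole interval to its divergently read neighbour H2bc15 and is 163 bases long at chr13:21753913-21754075, minus strand. That of H1f5 is chr13:21780626-21780875, minus strand, and that of H2ac21 is chr3:96219635-96219884, plus strand. That of H2ac20 spans the 191 bases to its divergent neighbour H2bc21 at chr3:96220881-96221071, minus strand, and that of H2ac10, the H2A gene with the smallest difference, is chr13:23533625-23533874, plus strand.
H2ac15: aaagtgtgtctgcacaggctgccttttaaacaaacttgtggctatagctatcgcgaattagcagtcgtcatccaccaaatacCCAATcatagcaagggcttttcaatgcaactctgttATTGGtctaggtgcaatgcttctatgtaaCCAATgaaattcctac
H1f5: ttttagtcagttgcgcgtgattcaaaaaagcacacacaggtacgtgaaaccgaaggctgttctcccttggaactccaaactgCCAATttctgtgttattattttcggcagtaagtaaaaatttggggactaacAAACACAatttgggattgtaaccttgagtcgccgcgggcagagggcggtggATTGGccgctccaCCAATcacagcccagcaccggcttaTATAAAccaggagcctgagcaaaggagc
H2ac21: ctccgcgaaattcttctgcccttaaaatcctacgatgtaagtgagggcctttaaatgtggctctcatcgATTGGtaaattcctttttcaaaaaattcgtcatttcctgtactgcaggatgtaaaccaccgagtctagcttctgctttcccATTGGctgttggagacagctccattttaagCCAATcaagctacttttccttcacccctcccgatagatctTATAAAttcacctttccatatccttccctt
H2ac20: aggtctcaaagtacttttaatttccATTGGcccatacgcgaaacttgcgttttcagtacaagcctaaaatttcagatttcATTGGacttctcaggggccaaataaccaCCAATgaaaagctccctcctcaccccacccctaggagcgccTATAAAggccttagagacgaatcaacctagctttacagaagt
H2ac10: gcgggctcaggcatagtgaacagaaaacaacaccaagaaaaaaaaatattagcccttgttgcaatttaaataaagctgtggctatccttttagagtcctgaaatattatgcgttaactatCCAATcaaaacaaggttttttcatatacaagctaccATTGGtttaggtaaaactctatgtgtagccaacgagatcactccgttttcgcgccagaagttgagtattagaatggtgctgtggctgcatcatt

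Each of these 5 stretches holds CCAAT matches, 2 in H2ac10 and 3 in each of the others. A TATA match lies shortly before the start in H1f5, H2ac21 and H2ac20. In H2ac15 the stretch shown has none, and 1 match lies within the 50 bases after the annotated start. H2ac10 has none in its stretch or in those 50 bases. The H1 box occurs in H1f5 and in none of the 4 H2A stretches.

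Promoter windows of 300 bases, 250 before the start and 50 after it, were at hand for 27 of the 29 members (H2bc21 and H4c14 were not matched). Searched on both strands, TATAAA occurred in 16 of the 27 (59.3%) against 13.6% of 32851 promoters of the same length, and CCAAT in 20 (74.1%) against 37.4%. The octamer ATTTGCAT occurred in 8 members (29.6%) against 1.74% of all promoters, in 3 of 6 H2A genes, 5 of 7 H2B genes and 0 of 8 H1 and 0 of 6 H4 genes. AAACACA occurred in 7 members (25.9%) against 7.18%, of which 4 were among the 8 H1 genes. No matches of different motifs overlapped in the member promoters. Unlike the stretches shown, the windows were not cut at the next gene or at the start. A match can thus lie after the start or within a divergent neighbour. None of the H2A stretches shown holds the octamer. These matches describe the letters of the windows only.

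After irradiation the histone genes did not move as a block. H2ac15 and the linker gene H1f5 stood lower by more than 1 log2 unit. All 6 H2A genes, H2ac15 among them, had a lower mean. Under quantile normalization or after subtraction of array medians 5 of 6 did, and H2ac10 turned to 0.065 and 0.0039. Of the H2B genes 6 of 8 had a lower mean, and H4 was divided. By the limma fit over all 22180 genes, 0 members and 0% of all genes passed an adjusted p of 0.05. At an unadjusted p under 0.05, 3 of 29 members were lower against 4.03% of all genes, and 0 were higher against 2.05%. One of the 3 is H2ac15, whose difference led to the choice of the family; of the other 28 members, 2 were lower (H1f5 and H2ac20). With each mouse left out in turn, 2 to 5 of the 29 were lower at that p, H2ac15 included. There were 5 without irradiated mouse 1, where 4.17% of all genes were lower, and 2 without irradiated mouse 2 (3.17%), irradiated mouse 3 (3.8%), sham mouse 3 (4.16%) or sham mouse 4 (3.36%). Groups that did not overlap were seen in 1 member, H2ac15, on the lower side (2.56% of all genes) and in 0 on the higher side (1.12%).

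In all, 19 members had a lower and 10 a higher mean in irradiated mice, 65.5% lower against 57.8% of all genes; 17 were lower under quantile normalization and 18 after subtraction of array medians. The median difference was -0.07 on the log2 scale, and -0.05 without H2ac15, against -0.03 over all genes. Among members whose mean reached the median of all rows (4.70), 12 of 16 were lower with a median of -0.27, or 11 of 15 with -0.26 when H2ac15 was set aside; over the 12286 genes that bright, 60.9% were lower and the median was -0.04. The other 13 members lay below that level, for which no detection calls were used, and their median was -0.01. The 23 members made in S phase, H2ac15 among them, had a median of -0.18 with 17 lower (73.9%, against 57.8% of all genes). The 6 testis, oocyte and replication-independent members had 0.05 with 2 lower. Of the 23, 9 lay below the median of all rows, and of the 6, 4 did.

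H2ac15, an H2A gene of the large chromosome 13 cluster (Entrez 319169), read 8.10, 8.08, 8.05 and 8.44 in sham mice 1 to 4 on the log2 scale. In irradiated mice 1 to 4 it read 7.70, 6.59, 6.81 and 6.87. All 4 irradiated mice lay below the lowest sham mouse, with irradiated mouse 1 nearest to the sham values. The means were 8.17 ± 0.18 and 6.99 ± 0.49 (SD, n = 4 each), a difference of -1.18 with an SE of 0.22, or 2.26-fold lower. The difference ranged from -1.41 to -1.04 as each mouse was left out in turn. H2ac15 is also listed in a row shared by 12 H2A symbols, whose value cannot be given to a single gene. That row read 7.09, 7.60, 7.53 and 7.29 in sham mice and 7.54, 6.87, 7.27 and 7.16 in irradiated mice. Its difference was -0.17 and its groups overlapped.

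H1f5 encodes a linker histone made in S phase (Entrez 56702, chromosome 13). In sham mice 1 to 4 its signal was 7.81, 8.77, 8.65 and 8.35, and the irradiated mice, in the same order, gave 8.19, 6.48, 7.65 and 7.02. Irradiated mouse 1 fell inside the sham range and the other 3 below it. The means were 8.39 ± 0.43 and 7.33 ± 0.74 (SD, n = 4 each), a difference of -1.06 with an SE of 0.34 and a 95% interval of -1.82 to -0.30. Its p by limma was 0.0108 unadjusted and 0.819 after Benjamini-Hochberg adjustment over all genes. Without sham mice 2 and 3 together, the difference was -0.74 and the unadjusted p in limma 0.112. These were its highest sham mice, so a rise of the difference was fixed in advance. The same holds for H2ac21, H2ac20, H2bc18 and H4c12 below.

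The other linker genes differed by less than 0.4 in either direction. H1f1, a dim S-phase linker gene, read 4.65, 5.22, 4.49 and 4.36 in sham mice and 4.68, 3.58, 4.20 and 4.73 in irradiated mice, a difference of -0.38. H1f10, the replication-independent linker histone, read 5.27, 5.10, 5.45 and 5.28 against 5.61, 5.33, 5.21 and 5.89, a difference of 0.23. In both genes the groups overlapped. H1f3, also made in S phase, read 5.88, 4.85, 5.04 and 5.36 against 4.97, 4.72, 5.08 and 5.15, a difference of -0.30 with overlap. Over the 8 H1 genes, 4 were lower and 4 higher and the median was 0.02. The 4 linker genes made in S phase had a median of -0.34 with 3 lower, and the other 4 had 0.10 with 1 lower. H1f2, another linker gene made in S phase, stood at 7.33 ± 0.38 and 7.43 ± 0.36 (SD, n = 4 each), with a 95% interval of the difference of -0.38 to 0.59.

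**Figure D1:**
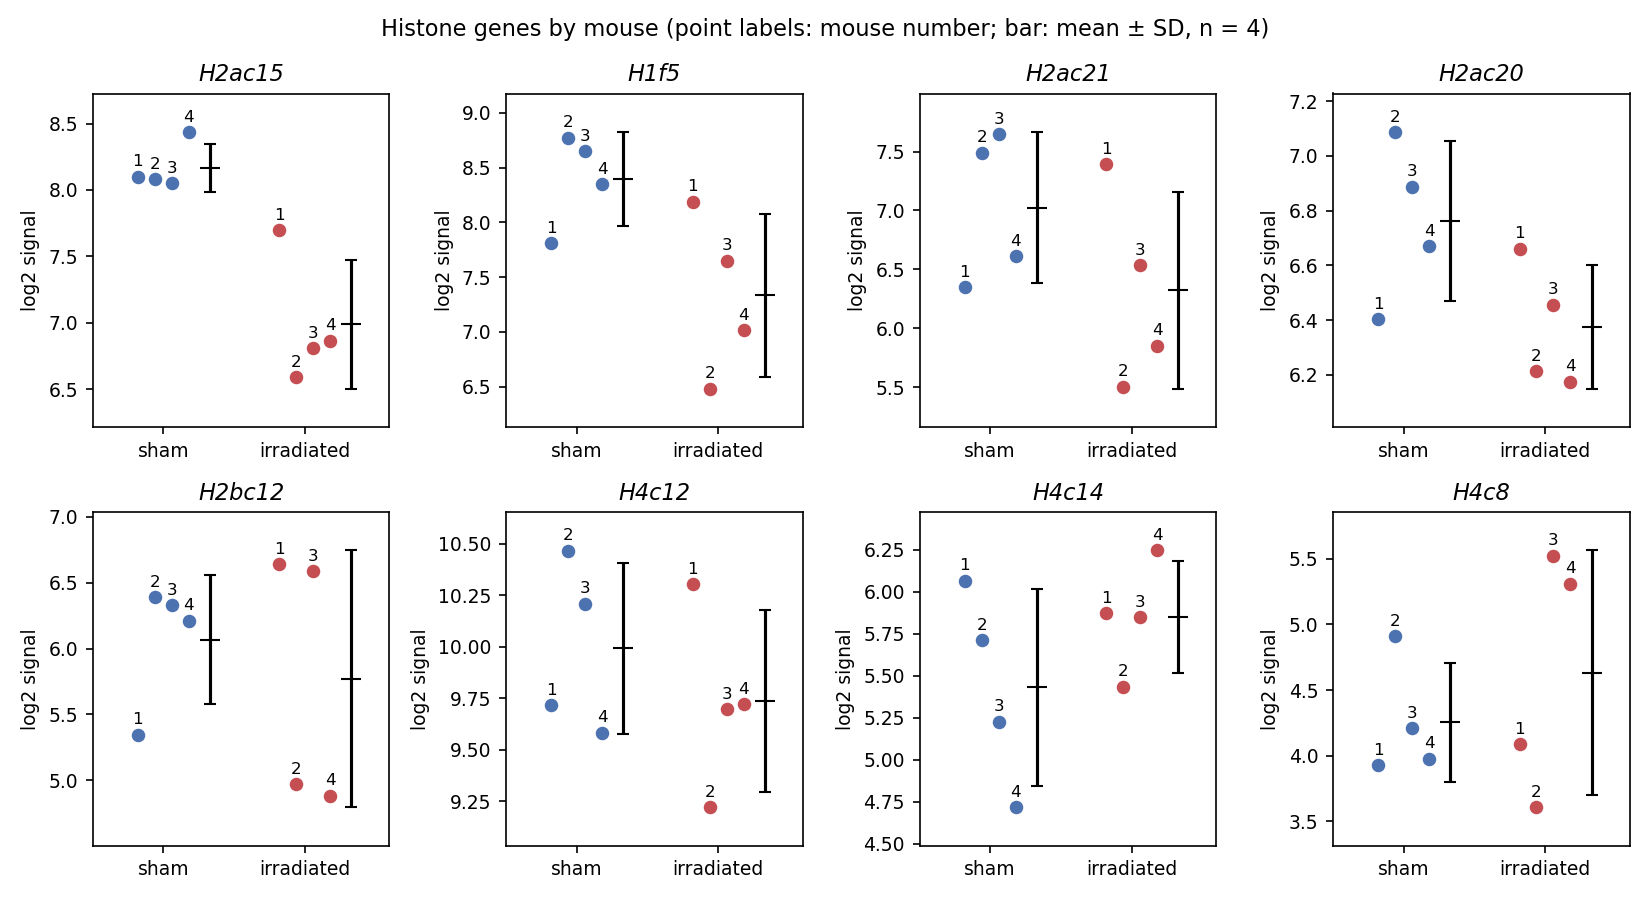
Log2 signal (y axis) of 8 histone genes in sham and irradiated mice; each point is 1 mouse with its number, and the bars give the mean ± SD of 4 mice. All 4 irradiated mice lie below the sham mice for H2ac15, and for the other 7 genes the groups overlap.

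The H2A genes, whose protein pairs with H2B in the nucleosome core, had a median of -0.29, and of -0.16 without sham mice 2 and 3. Both medians include H2ac15, which led to the choice of the family. With H2ac15 set aside, the middle difference over all 8 arrays was -0.19, that of the testis gene H2ac1. H2ac21, on chromosome 3, read 6.35, 7.49, 7.65 and 6.61 in sham mice and 7.40, 5.50, 6.54 and 5.85 in irradiated mice. Its sham mice 2 and 3 and irradiated mouse 1 were high together, and the groups overlapped. The difference of -0.70 had an SE of 0.41 and an adjusted p of 0.832 by limma. It was -1.06 without irradiated mouse 1, -0.43 without irradiated mouse 2 and -0.16 without sham mice 2 and 3. A second, dim row of H2ac21 differed by -0.07, and the mean of both rows by -0.39.

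H2ac20, its neighbour on chromosome 3, read 6.40, 7.09, 6.89 and 6.67 in sham mice and 6.66, 6.21, 6.46 and 6.18 in irradiated mice. The difference was -0.39 with an SE of 0.17, an unadjusted p of 0.0416 and an adjusted p of 0.819 by limma. Of the irradiated mice, 2 lay below the lowest sham mouse. By the same test the unadjusted p was 0.0675 after quantile normalization, 0.0523 with array weights, between 0.0104 and 0.123 with each mouse left out, and 0.381 without sham mice 2 and 3, where the difference was -0.16. H2ac10 read 7.08, 7.53, 7.36 and 7.11 against 7.23, 6.73, 7.40 and 7.67, a difference of -0.01 that turned to 0.065 under quantile normalization. The testis gene H2ac1 differed by -0.19 and the dim gene H2ac12 by -0.04.

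The H2B genes gave a median of -0.15, with 6 of 8 lower and 0 past an unadjusted p of 0.05 by limma. That median was -0.049 without irradiated mouse 2, -0.063 without sham mouse 2 and -0.024 without sham mice 2 and 3. H2bc12 read 5.35, 6.39, 6.33 and 6.21 in sham mice and 6.64, 4.97, 6.59 and 4.88 in irradiated mice, a difference of -0.30 with an SE of 0.43. Irradiated mice 1 and 3 were above every sham mouse and irradiated mice 2 and 4 below every sham mouse. H2bc18, on chromosome 3, read 6.08, 7.005, 6.81 and 5.91 against 6.20, 6.08, 6.44 and 5.97, a difference of -0.28 that became 0.18 without sham mice 2 and 3. H2bc9, the H2B gene with the largest higher mean, read 5.08, 4.26, 4.81 and 3.77 against 5.41, 3.65, 4.48 and 5.08, a difference of 0.17. That difference changed sign with the mouse left out, from -0.08 to 0.51.

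The H4 genes, which encode the most conserved of the core histones, had a median of 0.02 with 3 of 7 lower. H4c12 read 9.72, 10.47, 10.21 and 9.58 in sham mice and 10.30, 9.22, 9.70 and 9.72 in irradiated mice, a difference of -0.26 that became 0.09 without sham mice 2 and 3. H4c1 read 4.78, 4.72, 4.60 and 4.42 against 4.40, 4.23, 3.89 and 5.29, a difference of -0.18; irradiated mouse 4 was the highest and the other 3 irradiated mice the lowest of the 8. H4c14, in the chromosome 3 cluster, read 6.07, 5.71, 5.22 and 4.72 against 5.87, 5.43, 5.85 and 6.24, a difference of 0.42 with an SE of 0.27 and an adjusted p of 0.856 by limma. H4c8 was dim and read 3.93, 4.91, 4.21 and 3.98 against 4.09, 3.61, 5.52 and 5.31, a difference of 0.38 that was 0.08 when irradiated mouse 3 was left out and was 0.72 when irradiated mouse 2 was. In all 4 of these H4 genes the groups overlapped.

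**Figure D2:**
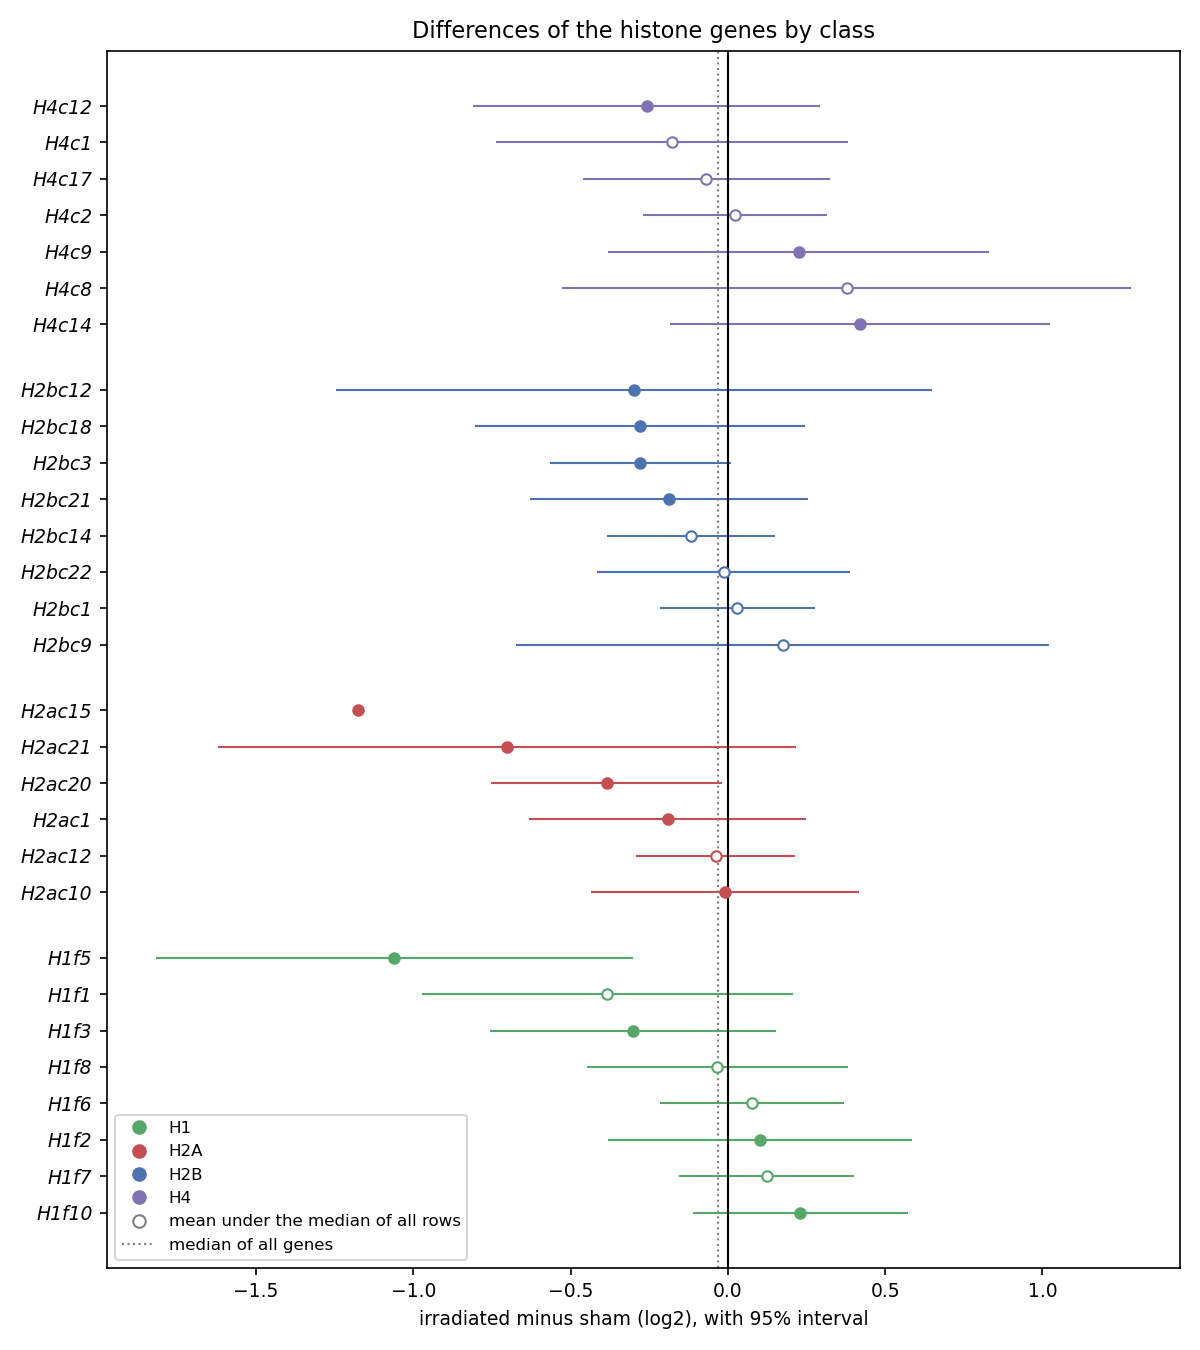
Difference of the group means (x axis, log2, irradiated minus sham) of the 29 histone genes by class, with the 95% interval of the limma fit; H2ac15 has no interval because it was chosen for this difference. All 6 H2A genes lie below 0 (H2ac10 turned above 0 under quantile normalization and after subtraction of array medians), and the intervals of H1f5 and H2ac20 are the only ones that leave out 0. The dotted line is the median of all genes (-0.03), and open circles mark genes with a mean under 4.70.

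Neighbours in the genome did not always share a direction. The 21 members on chromosome 13, H2ac15 among them, had a median of -0.07 with 14 lower (66.7%, against 57.8% of all genes). The 5 on chromosome 3 had -0.28 with 4 lower, and H4c14 was the exception. Of the divergent pairs with both genes measured, H2ac20 and H2bc21 differed by -0.39 and -0.19. The pair H2ac12 and H2bc12 differed by -0.04 and -0.30, and the testis pair H2ac1 and H2bc1 by -0.19 and 0.03. H2ac12 and H2bc1 were dim, with means of 2.62 and 2.45 over all arrays. H2bc15, across the shared start region from H2ac15, has no row of its own.

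Single mice stood apart over much of the family. Irradiated mouse 2 was the lowest of the 8 arrays for 15 of the 29 members and irradiated mouse 1 for 0, and sham mouse 2 was the highest for 7. Mean signal over the 29 members was 5.32, 5.55, 5.36 and 5.30 in the sham group, and 5.46, 4.89, 5.33 and 5.28 in the irradiated one. Only irradiated mouse 2 lay below the sham range by more than 0.1. For the 6 H2A genes the means were 5.90, 6.24, 6.25 and 6.08 against 6.14, 5.37, 5.73 and 5.55. By these means irradiated mice 2, 3 and 4 lay below every sham mouse and irradiated mouse 1 among them. The means include H2ac15, which led to the choice of the family. Of the other H2A genes, H2ac10, H2ac20 and H2ac21 read higher in irradiated mouse 3 than in sham mouse 1. H2ac1 and H2ac12 read lower in it.

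Rows shared by several histone genes gave a second view and the only one of H3. There were 34 such rows with distinct values, 9 of H2A, 7 of H2B, 12 of H3, 5 of H4 and 1 that mixed classes, and a value of one cannot be given to a single gene. Of the 34 rows, 24 were lower (70.6%, against 57.8% of all genes), with a median of -0.17. At an unadjusted p under 0.05 by limma, 2 rows were lower, against 4.02% of the genes and rows in that fit. By class the medians were -0.17 for H2A (8 of 9 lower), -0.27 for H2B (5 of 7), -0.06 for H3 (7 of 12) and -0.24 for H4 (4 of 5). For the 5 H3 rows that reached the median of all rows, 3 were lower and the median was -0.06.

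The rows named next were picked after their values were seen. An H2A row of 10 symbols, H2ac11 the first of them, read 4.06, 6.19, 3.64 and 3.79 in sham mice and 3.24, 2.96, 3.26 and 3.16 in irradiated mice, a difference of -1.27. The groups did not overlap (2.56% of all genes on the lower side), but the row was dim and its sham mean rested on sham mouse 2. An H4 row of 13 symbols read 6.04, 5.95, 5.04 and 6.72 against 5.64, 4.86, 5.08 and 5.01, a difference of -0.79. An H3 row of 8 symbols went the other way, 8.79, 8.09, 6.37 and 6.94 against 8.05, 7.85, 8.55 and 8.73, a difference of 0.75. Its 4 irradiated mice lay close together and its sham mice 3 and 4 were low.

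H2bc15, the partner of H2ac15, is listed in 5 shared rows, 3 of them with only H2bc7, H2bc11 and H2bc13. Of these 3, the first read 10.88, 11.22, 11.09 and 10.72 in sham mice and 11.19, 10.23, 10.46 and 10.43 in irradiated mice, a difference of -0.40 with irradiated mice 2, 3 and 4 below every sham mouse. The other 2 differed by -0.37 and 0.88, the last in a dim row. The remaining rows, of 12 H2B symbols each, differed by -0.43 and -0.27. By limma, none of the 5 rows passed an unadjusted p of 0.05.

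**Figure D3:**
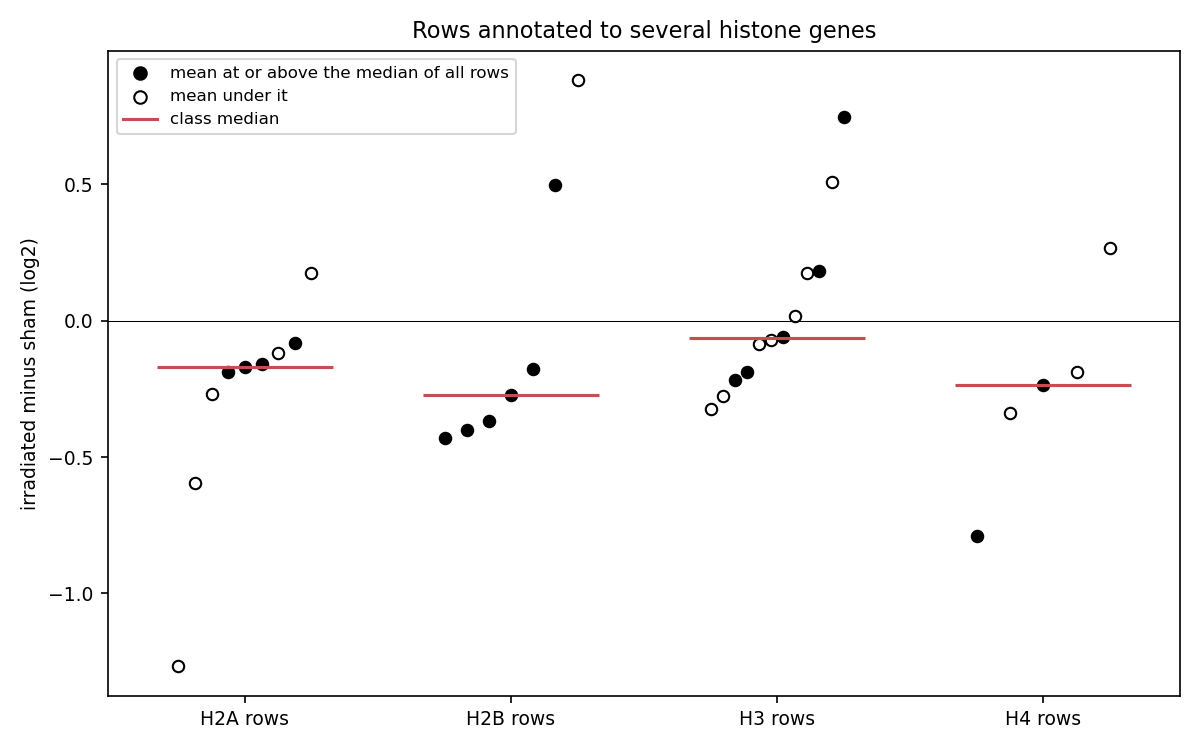
Difference of the group means (y axis, log2, irradiated minus sham) of rows annotated to several histone genes of 1 class; each point is a row, open where its mean is under 4.70, and the red line is the class median. The medians are -0.17 for H2A, -0.27 for H2B, -0.06 for H3 and -0.24 for H4.

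Histone mRNA is made and trimmed by a dedicated set of factors. Of 21 listed genes of histone transcription and pre-mRNA processing, 19 were measured and 16 had a lower mean (84.2%). Of all genes 57.8% were lower, and of those not dim 60.9%. The median was -0.14, against -0.04 over the genes not dim. At an unadjusted p under 0.05 by limma 1 was lower, a share near the 4.03% of all genes. That gene was Casp8ap2, which encodes the processing factor FLASH. It read 7.38, 7.31, 7.45 and 7.29 in sham mice and 6.70, 6.91, 7.06 and 6.97 in irradiated mice. Its groups did not overlap, as in 2.56% of all genes on the lower side, and it was the only 1 of the 19. The difference was -0.45 with an SE of 0.11 and an adjusted p of 0.819 by limma. Slbp, the stem-loop binding protein, read 8.87, 8.84, 8.87 and 8.49 against 8.69, 8.52, 8.47 and 8.58, a difference of -0.20 with overlap.

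Others of that machinery differed by less or were dim. Npat, the activator that gathers at histone clusters, differed by -0.08, and Hinfp, an activator of H4 genes, by 0.14. The U7 particle proteins Lsm10 and Lsm11 differed by 0.02 and -0.09. Zfp473, which links the U7 particle to the stem-loop binding protein, differed by -0.21 in a dim row, and Eri1, which trims the mRNA end, by -0.14. The differences of Npat, Hinfp, Lsm10 and Lsm11 changed sign when single mice were left out.

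Genes of histone mRNA decay were mixed. All 13 listed genes were measured and 8 were lower (61.5%, against 57.8% of all genes). At an unadjusted p under 0.05 by limma, 1 was lower (4.03% of all genes) and 2 were higher (2.05%). Lsm2, of the ring that binds the end of the mRNA, differed by -0.31. Tut7, which adds uridines to it, differed by 0.31, and the exonuclease Xrn1 by 0.24. The groups of all 3 overlapped, and the adjusted p by limma was 0.822 for Lsm2 and 0.819 for the others.

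Histone chaperones, which carry new histones to DNA, were compared next. Of 20 listed, 18 were measured, 14 were lower (77.8%, against 57.8% of all genes) and the median was -0.17. At an unadjusted p under 0.05 by limma, 4 were lower (4.03% of all genes) and 0 higher (2.05%). Asf1a, a carrier of H3 and H4, differed by -0.30, Nasp, a store of the same pair, by -0.29, Rbbp4, a subunit of the assembly factor CAF-1, by -0.24, and Nap1l1, a carrier of H2A and H2B, by -0.21. In Asf1a, Rbbp4 and Nap1l1 the groups did not overlap (2.56% of all genes on the lower side). Daxx, a carrier of the variant H3.3, had the largest difference of the list by size, 0.52, with 3 of 4 irradiated mice above every sham mouse and an unadjusted p of 0.0806 by limma. Of 11 listed histone variants, 8 were measured, H1f10 among them, and 5 were lower (62.5%). H2az2, which encodes an H2A.Z protein, differed by -0.37 with an unadjusted p of 0.028 by limma.

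DNA replication genes were compared because canonical histone mRNA is made alongside them. Of 32 listed, 29 were measured and 22 were lower (75.9%, against 57.8% of all genes), with a median of -0.14. At an unadjusted p under 0.05 by limma, 5 were lower (4.03% of all genes) and 1 was higher (2.05%). Ccne1, the S-phase entry cyclin, read 5.54, 5.40, 5.62 and 5.71 in sham mice and 4.72, 4.86, 5.30 and 4.75 in irradiated mice, a difference of -0.66 with no overlap and an adjusted p of 0.802 by limma. Rrm1, of the enzyme that makes deoxynucleotides, differed by -0.49, also with no overlap (2.56% of all genes on the lower side). The helicase subunits Mcm2, Mcm4 and Mcm7 differed by -0.33, -0.42 and -0.58. Mcm10, which helps to start the helicase, differed by 0.35. All 4 irradiated mice lay above every sham mouse for Mcm10 (1.12% of all genes on the higher side).

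Irradiated mouse 2, the lowest array for the histone means, was also the lowest for the replication genes. Mean signal of the replication list was 6.52, 6.44, 6.69 and 6.53 in sham mice and 6.49, 6.09, 6.43 and 6.46 in irradiated mice. The 19 measured genes of the mitosis list had a median of -0.05 with 12 lower (63.2%, against 57.8% of all genes). Their means were 5.82, 5.89, 6.48 and 5.88 against 6.40, 5.31, 5.80 and 6.30, again lowest in irradiated mouse 2. Mki67, a marker of cycling cells, differed by -0.32 with means of 6.79 ± 0.84 and 6.47 ± 0.36 (SD, n = 4 each), and by 0.042 without sham mouse 3. The part of cycling cells in the histone values was not tested.

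**Figure D4:**
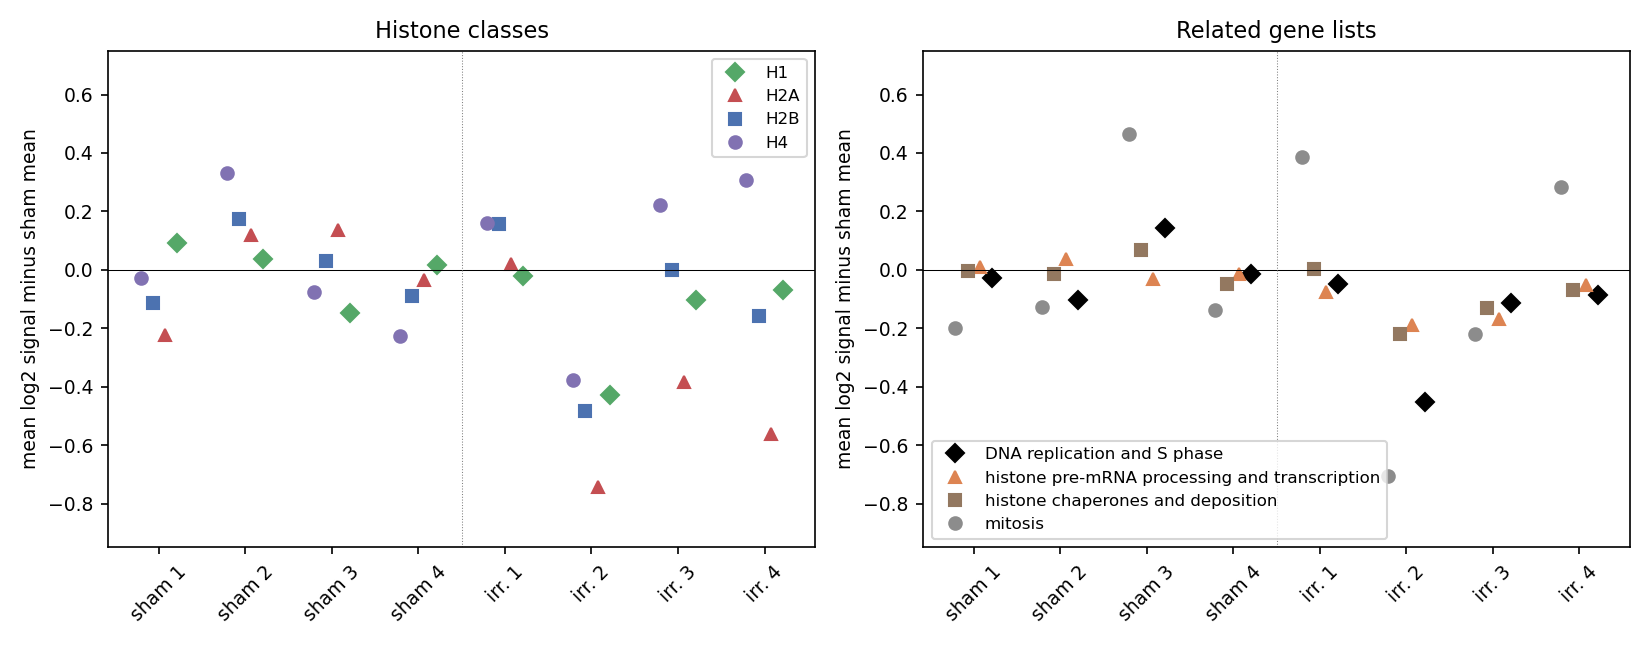
Mean log2 signal of a histone class (left) or a related gene list (right) in each mouse, minus the mean of the 4 sham mice (y axis); each point is 1 mouse. Irradiated mouse 2 is lowest for all 4 histone classes and for replication and mitosis genes. The H2A mean, which includes H2ac15, the gene that led to the choice of the family, is low in irradiated mice 2, 3 and 4.

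Markers of other cells differed between the arrays as well. The counts of lower markers below stand beside 57.8% of all genes. The array medians ran from 4.68 to 4.73 and the arrays correlated at 0.976 to 0.988 across rows. Ptprc, Itgam and Ly6c2, which encode the antigens of the sort, stood at means of 11.66, 10.94 and 11.55 in sham mice and 11.62, 11.12 and 11.76 in irradiated mice. The 20 measured T and NK cell markers averaged 5.46, 7.49, 7.64 and 5.80 in sham mice and 6.68, 5.47, 5.42 and 6.61 in irradiated mice, with 18 of 20 lower. Sham mice 2 and 3 were the highest, and irradiated mice 1 and 4 lay above sham mice 1 and 4. The 10 measured neutrophil precursor markers averaged 4.61, 5.55, 7.43 and 4.54 in sham mice and 4.46 to 4.70 in irradiated mice, with 9 lower. Sham mouse 3 was the highest of the 8 arrays for 9 of these 10 markers, and sham mouse 2 for 0. Camp, a granule gene among them, read 3.08, 8.02, 10.10 and 3.34 in sham mice and 3.08 to 3.69 in irradiated mice.

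The remaining marker lists moved in other ways. B and plasma cell markers averaged 4.94 to 5.92 over the sham arrays against 4.65 to 5.29, with 9 of 11 lower. Mature neutrophil markers had means of 8.32 to 9.12 against 7.79 to 9.32, with 9 of 12 lower, and tumour and stromal cell markers 6.07 to 7.40 against 6.25 to 7.34, with 7 of 13 lower.

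Sham mice 2 and 3, the arrays with the highest means of lymphocyte and precursor markers, were also the highest sham mice for H1f5, H2ac20, H2ac21, H2bc18 and H4c12. Without both, H2ac15 differed by -1.28, and the H2A median was -0.16, the H2B median -0.02, the H4 median 0.09 and the H1 median -0.20. The median of all 29 members was then -0.04, with 2 lower at an unadjusted p under 0.05 by limma (4.31% of all genes), H2ac15 and H1f3. H1f5 and H2ac20 were not among them. Both mice were left out after the values were seen. Taking out the highest sham mice of a gene always raises its difference. The rise was thus fixed in advance for H1f5, H2ac20, H2ac21, H2bc18 and H4c12, and no conclusion is drawn from it. The part of lymphocytes and neutrophil precursors in the histone differences was not tested.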

How the data were processed

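Total RNA (25 ng per mouse) was copied with poly(T) and random primers, amplified by ribo-SPIA and labelled with biotin, per the labels' protocols; random primers also reach mRNAs without a poly(A) tail. The authors deposited log2 values made with RMA and Partek, per the submitters' processing notes; no version or setting is given in the sources used here. Of 34365 rows, 23521 had 1 symbol, 1814 several and 9030 none in the platform annotation. For a symbol with several rows, the one with the highest mean across all 8 arrays stood for the gene, which gave 22180 genes; 29 of 29 member identifiers were found in the RefSeq table of GRCm38.p6, used for names, chromosomes and neighbours. Histone copies are near-identical, and whether rows with 1 symbol also read sister copies was not tested.

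The irradiated and sham arrays were fitted in R 4.3.3 by limma 3.58.1 with lmFit and eBayes. Tests were two-sided; p-values were adjusted by Benjamini-Hochberg across all 22180 genes and called at 0.05. The fit was tested on simulated data. Differences are irradiated minus sham; 4 arrays per group limit the precision. Members and lists were chosen with earlier results of these data known. The text names H2ac15, the 2 largest falls and the largest rise of each class, members at an unadjusted p under 0.05 or without overlap, the 3 with the widest range, 8 processing genes, genes of the first 5 lists at that p, and Mki67, Camp, Ptprc, Itgam and Ly6c2; H1f2, H1f3, H2ac1, H2ac10, H2ac12, H2bc1, H2bc21 and Daxx were added after their values were seen. Other settings tried were another scaling of the arrays, no dim genes, the mean of rows, all rows, shared rows added, another variance model, array weights, a block by mouse number and single mice left out. Plots used matplotlib 3.10.9.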

Additional observations from a re-analysis of the deposited data

Results flagged for a closer look

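Single mice stood apart from the other 3 of their group in 5 of 80 groups checked (40 named genes, Dixon's test at 95%), where chance alone gives about 5%. Sham mouse 4 was high for H2ac15 at 8.44, with the other sham mice at 8.05 to 8.10. Sham mouse 1 was low for H2bc12 at 5.35, against 6.21 to 6.39. Sham mouse 4 was low for Slbp at 8.49, against 8.84 to 8.87. Sham mouse 3 was high for Mcm7 at 6.19, against 5.61 to 5.68, and irradiated mouse 1 was high for Mcm10 at 5.00, against 4.92 to 4.93.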

How the results depend on the processing

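Of the counts, the medians and the H2ac15 difference, 152 values under other settings stayed within tolerance and 8 moved beyond it. The tolerance was 1.5 times for a count, otherwise 1 SD over mice, which is 0.26 for the H2A and 0.19 for the H2B median. It exceeded the size of the median for all members (0.18 against -0.07), H1 (0.12 against 0.02), H2B (0.19 against -0.15) and H4 (0.30 against 0.02). A median there could change sign and stay within it. Each H2A median given here includes H2ac15. Of the named genes' differences, 601 kept their sign and 18 reversed. The block, another variance model and removal of dim genes cannot change a gene's difference, so part of the 152 and 601 was fixed in advance. Without dim genes the median of all members was -0.27 and that of H1 -0.10. With the rows of several symbols, 5 of 63 members and rows were lower at an unadjusted p under 0.05 by limma, against 4.02% of all in that fit. With each mouse left out, 0 to 1 members passed the adjusted threshold (the 1 is H2ac15, for which no test is read since it led to the choice of the family), 2 to 5 were lower at an unadjusted p under 0.05 (5 without irradiated mouse 1), 0 to 1 were higher (H4c14 without sham mouse 1), and the H1 median ran from -0.13 to 0.071, the H2A median from -0.43 to -0.23, the H2B median from -0.18 to -0.049 and the H4 median from -0.030 to 0.10. Differences that changed sign ran from -0.080 to 0.51 for H2bc9, -0.46 to 0.0096 for H4c1, -0.019 to 0.28 for Hinfp, -0.10 to 0.094 for Lsm10, -0.20 to 0.10 for Lsm11, -0.020 to 0.54 for Ly6c2, -0.64 to 0.042 for Mki67, -0.23 to 0.12 for Npat and -0.064 to 0.0065 for Ptprc. Without sham mice 2 and 3, an alternative chosen after seeing the data, the H1 median was -0.20, and H2bc18 (0.18), H4c12 (0.087), Lsm10 (-0.068), Lsm11 (0.16) and Camp (0.15) reversed. The cause of these changes was not tested.

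Mouse numbers are shared by both groups but do not pair the mice: deviations of same-numbered mice correlated at -0.28, -0.17, -0.18 and -0.14. With the replicate block, 0 members passed the adjusted threshold and 2 were lower at an unadjusted p under 0.05 by limma (3.2% of all genes). An H3 median over rows with 1 symbol could not be had, since there is no such row. The median of all genes was -0.03, 0.00 after quantile normalization and -0.02 after subtraction of array medians.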
